A study of Mus musculus with 8 samples.

Results

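The Hox genes of the mouse lie in 4 chromosomal clusters, and 33 of them could be followed by name on these arrays. Members were taken by gene symbol, as probe sets whose single platform symbol is a Hox gene of cluster a, b, c or d, with 1 Hoxc gene left out by rule. This gave 41 probe sets for 33 genes out of 17097 named genes tested: 9 Hoxa genes on chromosome 6, 10 Hoxb genes on chromosome 11, 5 Hoxc genes on chromosome 15 and 9 Hoxd genes on chromosome 2. The genes were chosen by symbol and no measured value enters that rule. The family itself was, however, selected on the log2 change between cKO and WT in these arrays, since it was taken up with it known that Hoxd9 was among the larger falls in the knockout, so the difference of Hoxd9 is given as a description without a p-value, and the counts below describe the family and do not test it. Other Hox genes were not analysed here.

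Hox genes encode homeodomain transcription factors that give cells their position along the body axis. Within a cluster the genes stand in the order of their paralog position, and low positions act towards the head while high positions act towards the tail and the limb ends. Adult skin cells keep part of this pattern, which is held in place by Polycomb and other histone marks, and the clusters also make noncoding RNAs from between and across the coding genes.

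The arrays came from bulge cells, the stem cell compartment of the hair follicle, of 15-week-old mice labelled G9a cKO (4 arrays) or G9a WT (4 arrays). G9a, the product of Ehmt2, is a histone methyltransferase that places a repressive methyl mark on histone H3. Per the labels' protocols animals of both genotypes received weekly DMBA (a mutagen, 0.25 mg/ml) and TPA (a tumour promoter, 0.02 mg/ml) on shaved back skin, 200 µl of each, for 6 weeks from the age of 8 weeks. The skin is called pre-neoplastic by the labels, no untreated skin is among the samples, and the sources used here do not name the promoter or Cre behind the conditional deletion. Values are log2 signals after RMA, and since the labels do not state that each array is a separate animal, p-values measure the spread between arrays, which may be technical.

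The array medians lay between 5.87 and 5.95 and the scale ran from 3.09 to 13.1. All 14 measured bulge markers, Cd34, Lgr5, Sox9 and Krt15 among them, were over the level that silent genes reach, which is defined below. Of the 2 Ehmt2 probe sets, 1460692_PM_at read 5.85 ± 0.41 in cKO and 9.07 ± 0.19 in WT, while 1426888_PM_at read 8.41 ± 0.02 in cKO and 8.41 ± 0.01 in WT (mean ± SD, n = 4 each); the deleted part of the gene is not named in the sources used here. WT replicate 4 stood nearest to the cKO arrays on the first principal component, at 2.92 against 10.6 to 12.7 in the other WT arrays and -12.2 to -5.95 in the cKO arrays. The same 6 Hox genes passed the threshold below with and without it.

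A Hox probe set can be dim because its gene is silent, so a level was set from genes that skin should not use. The 83 probe sets of olfactory and vomeronasal receptor genes had a median of 3.95, and 95% of them lay at or under 5.50, which is called the receptor level here. It separates brighter from dimmer probe sets and is no test of expression, because probe sets differ in affinity. By it 19 of the 33 Hox genes were over the receptor level, all 19 in both genotypes: 5 of 9 Hoxa, 8 of 10 Hoxb, 3 of 5 Hoxc and 3 of 9 Hoxd genes. All 9 genes of positions 5 to 8 were over it, against 6 of 11 at positions 1 to 4 and 4 of 13 at positions 9 to 13. The 4 at the posterior end were Hoxa9, Hoxb9, Hoxc9 and Hoxd9, and none of the measured genes from position 10 onwards was over the level.

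Of the 33 Hox genes, 6 were lower in cKO than in WT and 0 were higher at an adjusted p under 0.05 (limma, over all 17097 genes). They were Hoxa3 and Hoxa5 of the Hoxa cluster, the neighbours Hoxb5, Hoxb6 and Hoxb7 of the Hoxb cluster, and Hoxd9 of the Hoxd cluster. Hoxd9 was known to fall before the family was taken up, so its place among the 6 is no evidence. None of the 5 Hoxc genes passed the threshold. Over all genes tested 0.836% were called lower in cKO and 1.92% higher, together 2.76%; among genes over the receptor level, to which the 6 belong, 1.1% were called lower. No Hox gene with a positive difference reached an unadjusted p under 0.05 either. By position, 1 of 11 genes at positions 1 to 4, 4 of 9 at positions 5 to 8 and 1 of 13 at positions 9 to 13 were called. The 1 at positions 9 to 13 was Hoxd9. Over the receptor level were 6, 9 and 4 of these genes, the called ones among them. A difference between positions was not tested.

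The log2 change was below 0 in 24 of 33 Hox genes, and in 18 of the 27 that were not called, against 48.5% of all genes. Among those over the receptor level, called genes included, it was below 0 in 5 of 5 Hoxa genes, 7 of 8 Hoxb genes, 1 of 3 Hoxc genes and 2 of 3 Hoxd genes, against 43.4% of all genes over that level. The median log2 change was -0.10 in Hoxa, -0.16 in Hoxb, 0.02 in Hoxc and -0.02 in Hoxd, beside 0.0027 over all genes. These medians include dim genes, whose share differs between clusters. Among genes over the receptor level the median was -0.30 in Hoxa, -0.18 in Hoxb, 0.05 in Hoxc and -0.02 in Hoxd. Over all genes above that level it was 0.014. Hoxb thus had the lowest median over all its genes, and Hoxa the lowest among brighter genes. The 4 cKO values lay below the 4 WT values without overlap in 11 Hox genes, 3 of Hoxa, 7 of Hoxb and 1 of Hoxd, of which 5 were not called, where 3.09% of all genes did so; 10 of the 11 were over the receptor level, where 3.28% of genes did; the opposite order was seen in 0 Hox genes and in 5.15% of all genes. Of the 11, Hoxb2 was a near tie, its highest cKO and lowest WT arrays both reading 6.70, and Hoxb13 was not over the receptor level. A difference between clusters was not tested.

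**Figure D1:**
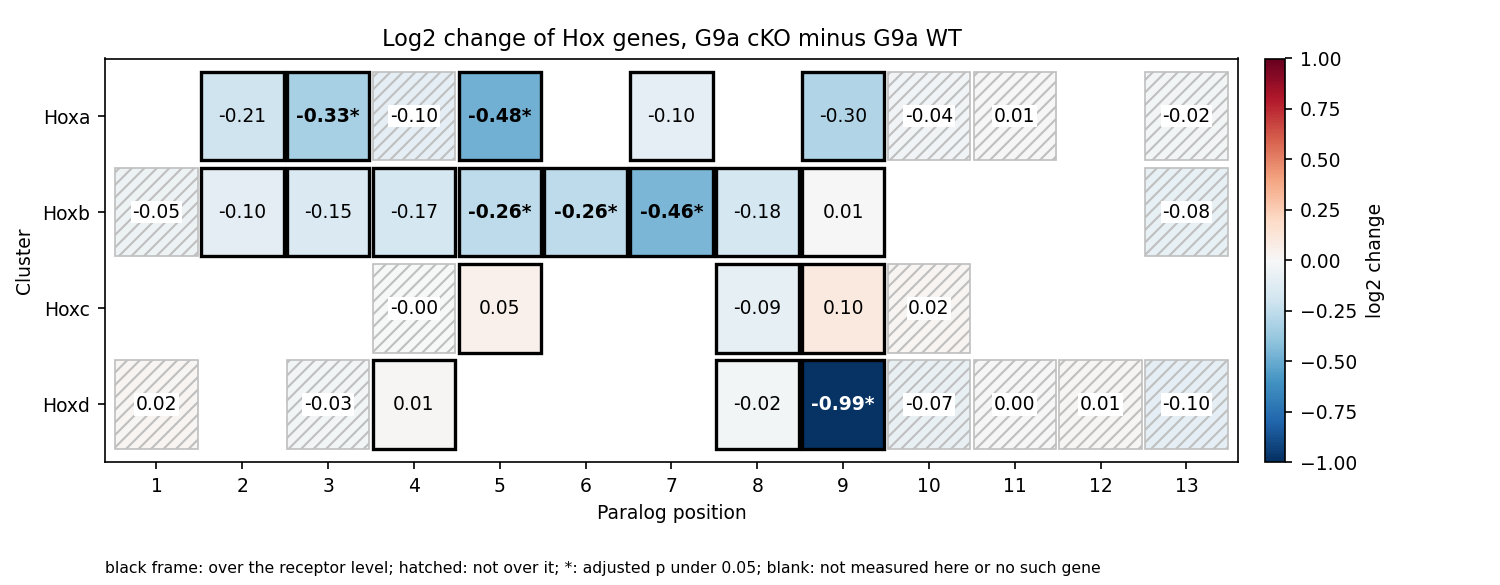
Log2 change, G9a cKO minus G9a WT (colour and number), of 33 Hox genes by cluster (rows) and paralog position (columns); black frames mark genes over the receptor level, hatching genes not over it, and asterisks an adjusted p under 0.05. Blue squares fill positions 2 to 8 of Hoxb and much of Hoxa, Hoxd9 stands alone at -0.99, and the hatched genes lie between -0.10 and 0.02. The asterisk of Hoxd9 is no evidence, because its fall was known before the family was taken up.

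Hoxd9, a posterior gene that acts with its paralogs in the limb and the lumbar spine, had the largest difference of the family. It read 8.07, 8.28, 7.86 and 7.69 in the cKO arrays, against 9.25, 8.86, 8.84 and 8.92 in the WT arrays. The cKO arrays varied more than the WT arrays, yet the highest of them stayed below the lowest WT array. The means were 7.98 ± 0.26 in cKO and 8.97 ± 0.19 in WT (SD, n = 4 each), a log2 change of -0.99, or 1.99-fold lower. The Hoxd genes around it gave no such difference. Hoxd8, next to it on the anterior side, read 8.06, 8.37, 8.16 and 7.62 in cKO and 8.58, 7.99, 7.72 and 8.01 in WT by its brighter probe set 1433638_PM_s_at. Its groups overlapped throughout, and its 95% confidence interval, -0.45 to 0.40, was wide. Its other probe set, 1431099_PM_at, read 7.59, 7.51, 7.54 and 7.35 in cKO and 7.87, 7.64, 7.54 and 7.69 in WT, a log2 change of -0.19 that did not pass over all probe sets (limma adjusted p = 0.371). Those probe sets differ in spread, and the ending s of the brighter one marks probes shared by several transcripts, so the Hoxd8 value is uncertain. Hoxd10, next to Hoxd9 on the posterior side, was at the bottom of the scale, at 3.50, 3.50, 3.59 and 3.62 in cKO and 3.66, 3.63, 3.61 and 3.60 in WT.

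The paralogs of Hoxd9 at position 9 of the other clusters did not pass the threshold. Hoxa9, best known from blood stem cells and leukaemia, read 5.86, 5.79, 5.70 and 6.01 in cKO and 5.96, 6.09, 6.27 and 6.24 in WT. Only cKO replicate 4 reached into the WT range, and the log2 change was -0.30 (limma adjusted p = 0.116). Hoxb9, which helps to pattern the ribs, read 7.89, 8.00, 7.89 and 8.05 in cKO and 7.92, 7.97, 7.90 and 8.00 in WT. Here the groups lay on top of each other, with a log2 change of 0.01 and an interval of -0.12 to 0.13. Hoxc9, a gene of thoracic identity, read 6.65, 6.66, 6.67 and 6.52 in cKO and 6.45, 6.61, 6.53 and 6.50 in WT. It was the largest positive difference among the Hox genes, at 0.10, with an interval of -0.03 to 0.23 (limma adjusted p = 0.528).

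In the Hoxa cluster, Hoxa5 and Hoxa3 fell. Hoxa5, which mouse embryos need to form lung and trachea, read 8.37, 8.11, 8.14 and 8.08 in cKO, against 8.70, 8.68, 8.62 and 8.62 in WT. The WT arrays were tight, and cKO replicate 1 lay between them and the other cKO arrays. The log2 change was -0.48 (SE 0.07, limma adjusted p = 0.00468), or 1.40-fold lower, and Hoxa5 passed in all 8 fits that left out 1 array. Hoxa3, a gene of thymus and parathyroid formation, read 9.20, 9.02, 9.01 and 8.94 in cKO, against 9.32, 9.38, 9.43 and 9.38 in WT by the probe set tested. Again cKO replicate 1 was the highest of its group without reaching the WT arrays. The log2 change was -0.33 (SE 0.06, limma adjusted p = 0.0157), or 1.26-fold lower. Leaving out 1 array at a time, it passed in 4 of 8 fits and was lost without cKO replicate 2, 3 or 4 or WT replicate 3, with an adjusted p of up to 0.0645.

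All 4 Hoxa3 probe sets lay lower in cKO. Besides the one above, 1427433_PM_s_at passed over all probe sets, at -0.36 (limma adjusted p = 0.0158), while 1429398_PM_at at -0.32 (limma adjusted p = 0.0511) and 1431392_PM_at at -0.23 (adjusted p = 0.186) did not. Over all probe sets 0.587% were called lower, and 7 of the 41 Hox probe sets were, the 6 of the called genes and this second one of Hoxa3. The annotated Hoxa3 gene is long: in the RefSeq table it overlaps Hoxa4, Hoxa5 and Hoxa6 and 2 noncoding transcripts. The strand that each probe reads was not looked up here, so signal from overlapping genes cannot be told apart.

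**Figure D2:**
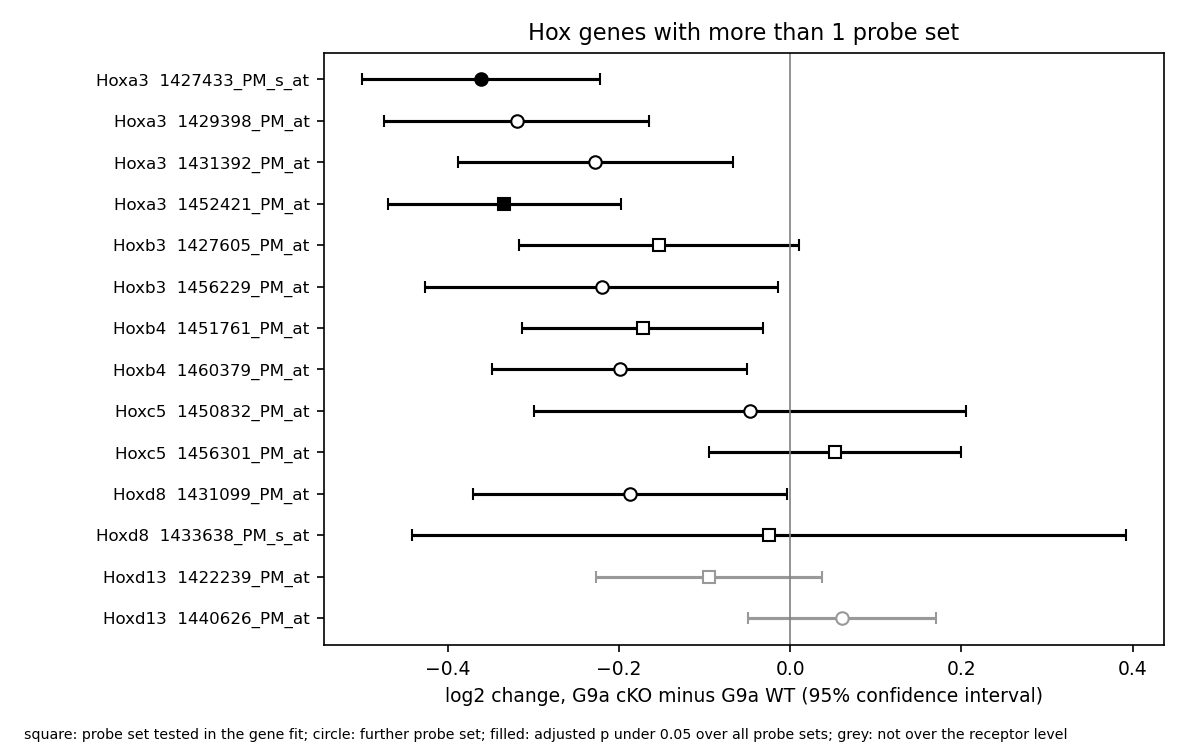
Log2 change, G9a cKO minus G9a WT, with its 95% confidence interval (x axis) for each probe set (y axis) of the 6 Hox genes that have more than 1. The 4 Hoxa3 probe sets lie between -0.36 and -0.23, both probe sets of Hoxb3 and of Hoxb4 lie below 0, and those of Hoxc5 and of Hoxd13 fall on opposite sides of 0.

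Among the Hoxa genes that did not pass, Hoxa2, which patterns the pharyngeal arches, was the one with separate groups. It read 6.49, 6.49, 6.45 and 6.52 in cKO and 6.71, 6.62, 6.63 and 6.83 in WT, a log2 change of -0.21 (limma adjusted p = 0.129). Hoxa7, which in human keratinocytes is known to restrain a differentiation gene, read 8.13, 8.07, 8.11 and 8.02 in cKO and 8.18, 8.06, 8.17 and 8.30 in WT. Its log2 change was -0.10, with an interval of -0.23 to 0.04. The other 4, Hoxa4, Hoxa10, Hoxa11 and Hoxa13, were not over the receptor level. Of these Hoxa11, the one positive difference of the cluster, read 4.36, 4.26, 4.29 and 4.27 in cKO and 4.31, 4.32, 4.30 and 4.23 in WT.

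The Hoxb cluster held 3 of the 6 called genes, side by side at positions 5, 6 and 7. Hoxb7, a trunk gene at the posterior end of the 3, read 8.27, 7.92, 7.93 and 7.92 in cKO, against 8.51, 8.41, 8.39 and 8.57 in WT. The cKO arrays other than replicate 1 were nearly equal, and replicate 1 lay nearer to the WT arrays. The log2 change was -0.46 (SE 0.09, limma adjusted p = 0.0178), or 1.38-fold lower. Hoxb6, active in trunk and limb bud mesoderm of the embryo, read 8.50, 8.49, 8.47 and 8.55 in cKO, against 8.70, 8.77, 8.83 and 8.76 in WT. Both groups were tight and well apart, and the log2 change was -0.26 (SE 0.05, limma adjusted p = 0.0193), or 1.20-fold lower. Hoxb5, a gene of the developing gut nervous system, read 8.13, 8.11, 8.11 and 8.11 in cKO, against 8.43, 8.26, 8.40 and 8.43 in WT. The cKO values lay within an SD of 0.01, and the log2 change was -0.26 (SE 0.05, limma adjusted p = 0.0301), or 1.20-fold lower.

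These calls rested on most arrays being present. Of the 8 fits that left out 1 array, Hoxb6 passed in 5, Hoxb7 in 4 and Hoxb5 in 2. Hoxb6 was lost without cKO replicate 2 or 3 or WT replicate 3, and Hoxb7 without cKO replicate 2, 3 or 4 or WT replicate 1. Hoxb5 passed only without WT replicate 2 and without WT replicate 4. The log2 changes themselves moved little in these fits, from -0.28 to -0.24 for Hoxb6, from -0.55 to -0.43 for Hoxb7 and from -0.30 to -0.25 for Hoxb5. Lower calls over all genes also varied in these fits, from 67 to 294, against 143 with every array kept.

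On either side of these 3 genes the differences were smaller and did not pass. Hoxb8, whose loss in mice is known to cause excessive grooming and hair removal, read 9.77, 9.82, 9.77 and 9.79 in cKO and 10.08, 9.91, 9.93 and 9.96 in WT. Its groups did not overlap, at a log2 change of -0.18 (limma adjusted p = 0.0825), and its probe set also carries the ending s. Hoxb4, known for expanding blood stem cells, read 7.62, 7.58, 7.59 and 7.63 in cKO and 7.65, 7.74, 7.84 and 7.87 in WT. It too was separated, at -0.17 (limma adjusted p = 0.225), and its second probe set gave -0.20. Hoxb3, which shares annotated sequence with Hoxb4, had a log2 change of -0.15 with overlapping groups and -0.22 in its second probe set. Hoxb2, a hindbrain gene, was at -0.10, and its highest cKO and lowest WT arrays both read 6.70. Hoxb13 was separated as well, at 4.48 ± 0.04 in cKO and 4.57 ± 0.04 in WT (SD, n = 4 each), but at the bottom of the scale, as was Hoxb1.

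**Figure D3:**
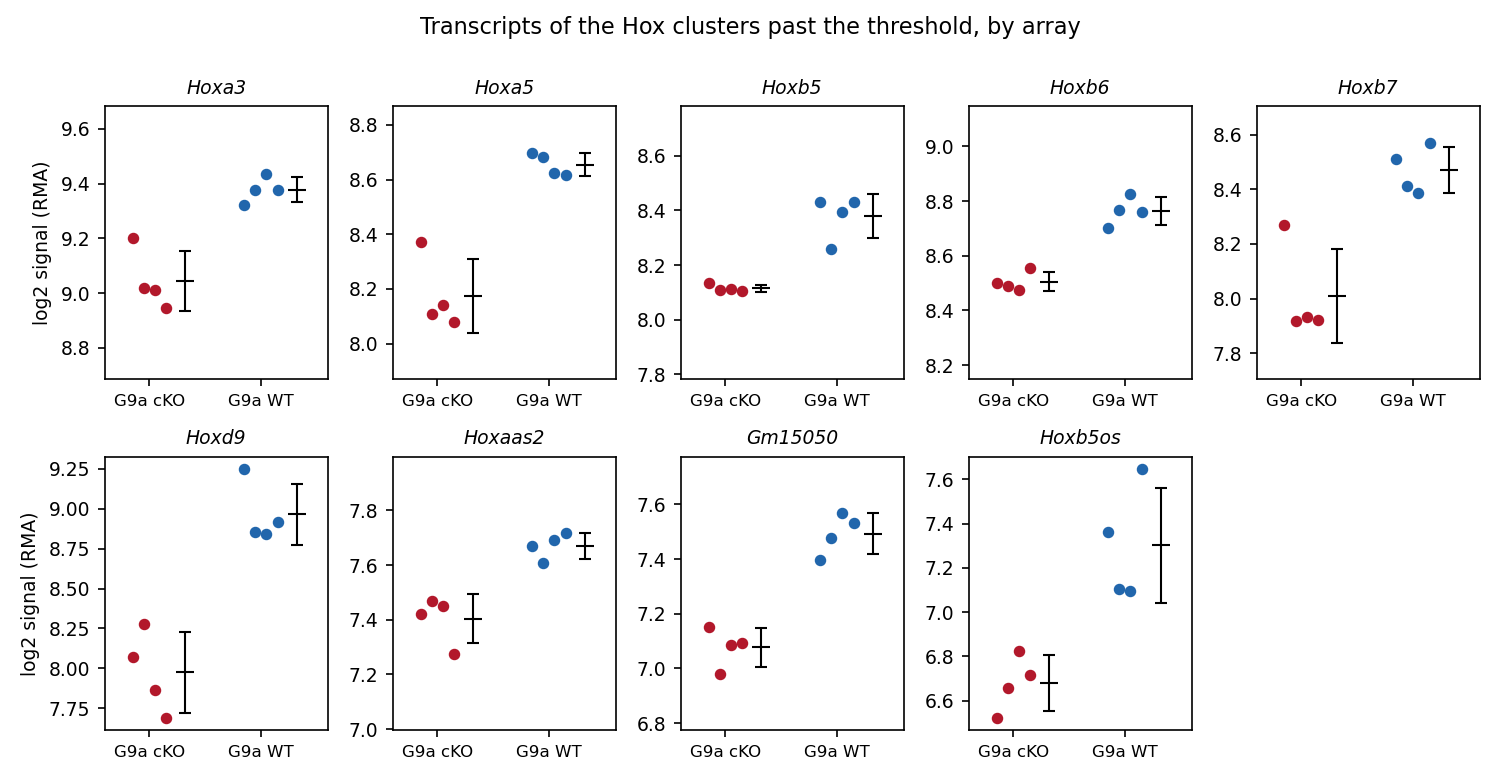
Log2 signal (y axis, its own range in each panel) in the 4 G9a cKO arrays (red, left) and the 4 G9a WT arrays (blue, right) for the 6 Hox genes and 3 noncoding transcripts of the clusters with an adjusted p under 0.05; black bars are mean ± SD. The colours do not overlap in any panel, and cKO replicate 1, the leftmost red point, stands above the rest of its group in Hoxa3, Hoxa5 and Hoxb7.

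The promoters of called genes are printed here to show how the starts of these genes differ in CG dinucleotides, the target of DNA methylation. The sequences are RefSeq windows of 300 bases (250 before to 50 after the annotated start, build GRCm38.p6), which 21 of the 33 genes had. Of the 6 called genes Hoxa3, Hoxa5 and Hoxd9 had one, and Hoxa7 and Hoxd8, both over the receptor level and not called, are set beside them. Each is written 5′ to 3′ on the strand of its gene, and capitals mark every CG.
Hoxd9, chr2:74697513-74697812, plus strand: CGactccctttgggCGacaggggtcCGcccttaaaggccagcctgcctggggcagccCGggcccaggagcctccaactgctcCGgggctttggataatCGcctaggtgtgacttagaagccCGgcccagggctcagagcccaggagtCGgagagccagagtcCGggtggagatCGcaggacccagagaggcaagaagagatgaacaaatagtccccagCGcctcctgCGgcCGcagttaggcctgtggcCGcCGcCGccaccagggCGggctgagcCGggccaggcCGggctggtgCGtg
Hoxa3, chr6:52213018-52213317, minus strand: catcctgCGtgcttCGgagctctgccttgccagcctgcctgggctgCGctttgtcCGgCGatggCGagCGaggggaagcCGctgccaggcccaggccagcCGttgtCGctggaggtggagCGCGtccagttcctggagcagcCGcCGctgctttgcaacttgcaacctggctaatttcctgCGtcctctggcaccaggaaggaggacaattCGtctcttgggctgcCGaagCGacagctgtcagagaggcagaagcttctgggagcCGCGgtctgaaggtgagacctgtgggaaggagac
Hoxa5, chr6:52204538-52204837, minus strand: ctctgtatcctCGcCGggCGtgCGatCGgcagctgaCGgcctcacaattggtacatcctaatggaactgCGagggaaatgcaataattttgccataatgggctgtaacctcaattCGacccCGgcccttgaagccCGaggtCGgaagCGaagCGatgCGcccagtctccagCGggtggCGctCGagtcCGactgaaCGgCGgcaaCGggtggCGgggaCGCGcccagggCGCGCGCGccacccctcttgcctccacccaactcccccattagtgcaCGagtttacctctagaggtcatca
Hoxd8, chr2:74704365-74704664, plus strand: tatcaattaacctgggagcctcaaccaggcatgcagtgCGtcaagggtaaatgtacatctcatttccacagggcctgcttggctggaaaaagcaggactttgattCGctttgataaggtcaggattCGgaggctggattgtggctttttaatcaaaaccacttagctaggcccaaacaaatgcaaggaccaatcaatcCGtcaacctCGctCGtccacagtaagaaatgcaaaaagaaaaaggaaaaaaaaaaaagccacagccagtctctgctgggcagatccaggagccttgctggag
Hoxa7, chr6:52218524-52218823, minus strand: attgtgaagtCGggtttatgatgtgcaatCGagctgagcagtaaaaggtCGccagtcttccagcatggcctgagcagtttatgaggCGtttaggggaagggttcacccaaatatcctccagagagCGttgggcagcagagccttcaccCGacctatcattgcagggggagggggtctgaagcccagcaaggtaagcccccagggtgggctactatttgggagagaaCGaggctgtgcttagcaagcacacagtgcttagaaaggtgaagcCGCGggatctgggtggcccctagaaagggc
The windows of the called genes held 20 CG in Hoxd9, 20 in Hoxa3 and 29 in Hoxa5, against 6 in Hoxd8 and 9 in Hoxa7. The Hoxa3 window is the start of the long annotated gene, which overlaps Hoxa4, Hoxa5 and Hoxa6. On the minus strand it lies upstream of the Hoxa5 window. Of 32851 promoter windows in the table, 73.5% held fewer than the 20 of Hoxd9 and Hoxa3, 87.1% fewer than the 29 of Hoxa5, 54.2% fewer than the 9 of Hoxa7 and 43.6% fewer than the 6 of Hoxd8. The other windows of genes over the receptor level, none of them called, held 14 in Hoxb4, 13 in Hoxb8, 9 in Hoxa2, and 4 in Hoxa9 and Hoxd4. Among genes not over the level, the windows of Hoxa13 and Hoxd13 held 45 and 37. The median was 14 over the 23 Hox windows and 7 over all windows. A link between CG number and the differences was not tested.

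Short motifs were searched on both strands of the same windows. CCAAT, the box bound by NF-Y, was found in Hoxa5 and Hoxd8 of the 5 printed, in 14 of 23 Hox windows and in 37.4% of all windows. TATAAA was found in 4 Hox windows and 13.6% of all. TGANTCA was found in 1 Hox window, an upstream start of Hoxd11, and in 7.81% of all. Its N accepts any base, so it is wider than the site of the TPA-responsive factor AP-1. TGATNNAT, a composite site of PBX and HOX proteins, was found in 4 Hox windows and 8.85% of all, and in none of the 5 printed. These matches describe letters only and no binding was measured.

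The Hoxc genes showed no call. Hoxc8, which patterns the thorax and its motor neurons, read 10.38, 10.55, 10.47 and 10.41 in cKO and 10.53, 10.47, 10.50 and 10.67 in WT. The groups overlapped, at a log2 change of -0.09 with an interval of -0.21 to 0.04, which leaves out a fall as large as that of Hoxa3 or Hoxa5. Hoxc5 had a log2 change of 0.05 by the probe set tested and -0.05 by the other. Hoxc4 and Hoxc10 were not over the receptor level.

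Of the remaining Hoxd genes only Hoxd4, a gene of the neck vertebrae, was over the receptor level. It read 6.05, 6.14, 5.86 and 6.06 in cKO and 5.86, 6.09, 6.08 and 6.03 in WT, a log2 change of 0.01 with an interval of -0.16 to 0.18. Hoxd3, which overlaps Hoxd4 in the annotation, read 3.86, 4.08, 3.92 and 3.80 in cKO and 4.16, 3.94, 3.81 and 3.86 in WT. Hoxd11 read 3.93, 3.93, 4.05 and 4.09 in cKO and 3.92, 4.04, 4.003 and 4.03 in WT. Hoxd1 read 3.56, 3.50, 3.53 and 3.55 in cKO and 3.44, 3.58, 3.52 and 3.51 in WT. These dim genes, with Hoxd10, Hoxd12 and Hoxd13, overlapped between genotypes. The 14 Hox genes not over the receptor level had log2 changes of at most 0.10 in size, none of them called.

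**Figure D4:**
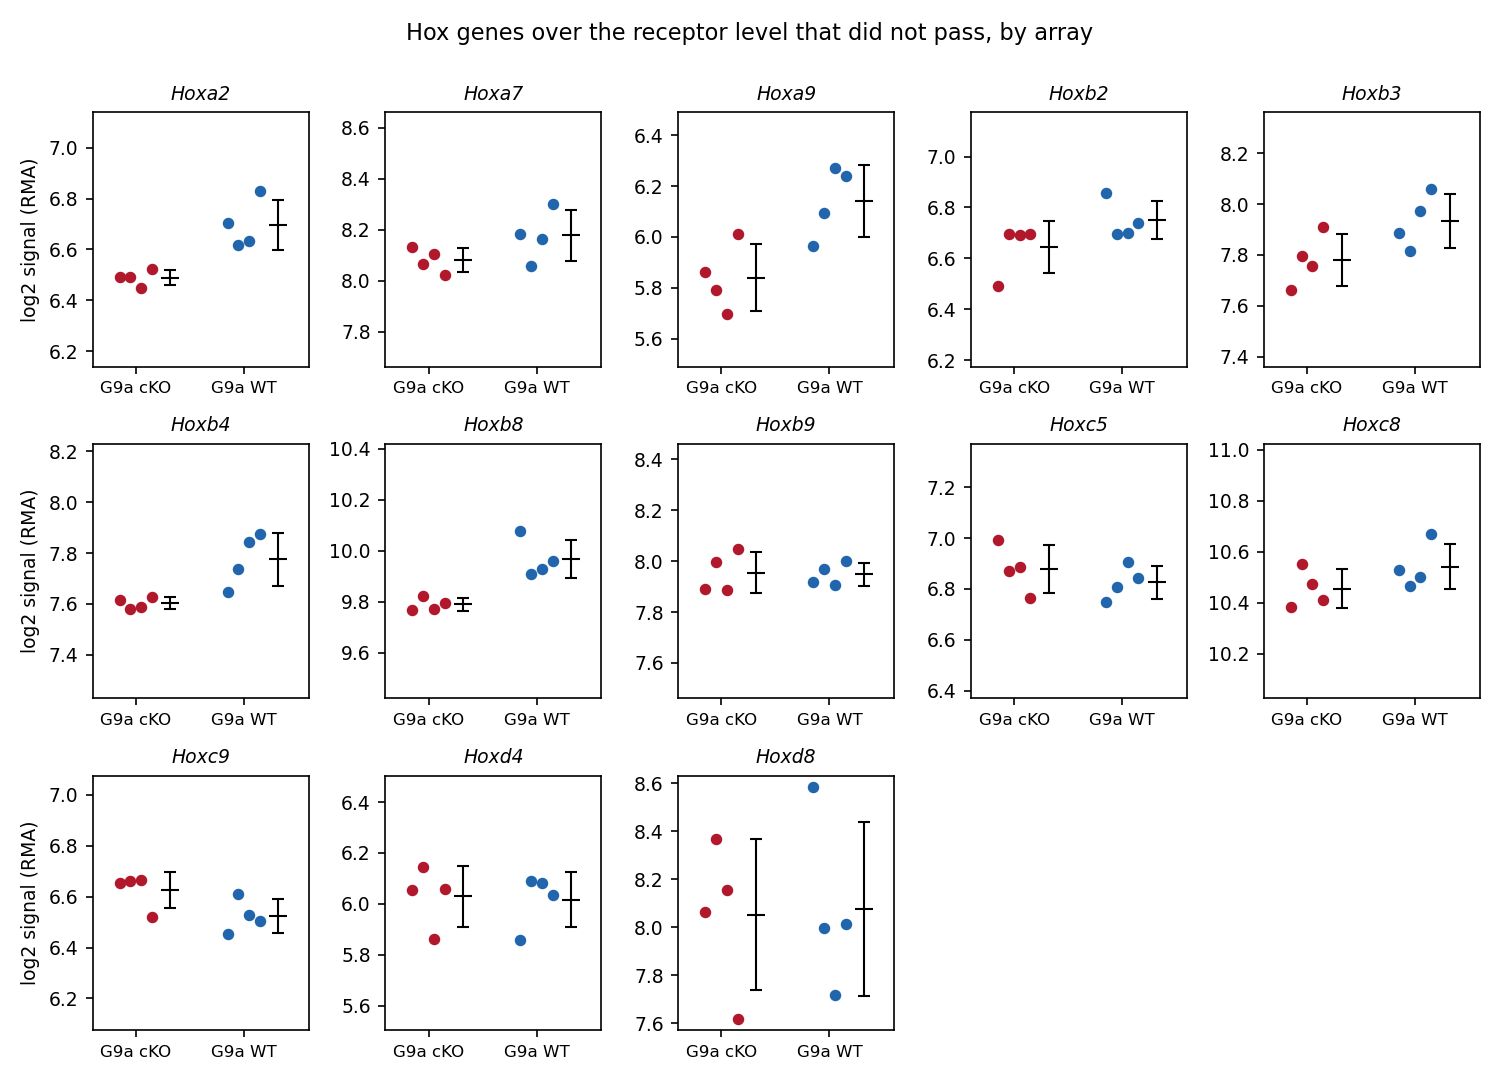
Log2 signal (y axis, its own range in each panel) in the 4 G9a cKO arrays (red, left) and the 4 G9a WT arrays (blue, right) for the 13 Hox genes over the receptor level that did not pass the threshold; black bars are mean ± SD. Hoxa2, Hoxb4 and Hoxb8 show separate groups, Hoxb2 groups that meet at 6.70, Hoxb9, Hoxc5, Hoxc8, Hoxc9 and Hoxd4 overlapping groups, and Hoxd8 a wide spread within both genotypes.

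Noncoding transcripts inside the clusters were partly measured. Of 32 other genes that the RefSeq table places within the spans of the 4 clusters, 6 were measured. Over the receptor level were 3, and all 3 of these fell. Among genes over that level 1.1% were called lower, and 0.836% among all genes. Hoxb5os, transcribed from the strand opposite to Hoxb5 and overlapping Hoxb5 and Hoxb6 in the annotation, read 6.52, 6.66, 6.82 and 6.72 in cKO, against 7.36, 7.11, 7.10 and 7.65 in WT. The groups were apart, with more spread in WT, and the log2 change was -0.62 (SE 0.12, limma adjusted p = 0.0218), or 1.54-fold lower. Hoxb5os passed in 4 of 8 fits and was lost without cKO replicate 1, 2 or 4 or WT replicate 1, and also with the replicate block (limma adjusted p = 0.0574). Gm15050, a gene model that lies within the Hoxa3 span, read 7.15, 6.98, 7.08 and 7.09 in cKO, against 7.40, 7.48, 7.57 and 7.53 in WT. The difference was -0.41 on the log2 scale (SE 0.06, limma adjusted p = 0.00542), or 1.33-fold lower, and it passed in all 8 fits without 1 array. Hoxaas2, an antisense RNA that also overlaps Hoxa3, read 7.42, 7.47, 7.45 and 7.27 in cKO, against 7.67, 7.61, 7.69 and 7.72 in WT. The difference was -0.27 on the log2 scale (SE 0.06, limma adjusted p = 0.0469), or 1.20-fold lower, and no fit that left out an array kept it past the threshold. The other 3 were not over the receptor level and did not pass: Hoxa11os was at -0.03, while Hoxd3os1, at 0.14 with an interval of 0.03 to 0.26, and Haglr, at 0.07, had positive log2 changes. Since overlapping transcripts cannot be told apart, these 3 falls and those of Hoxa3, Hoxa5, Hoxb5 and Hoxb6 may not all be separate observations.

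Of 15 measured genes flanking the clusters 0 were called, beside 2.76% of all genes, and 6 had a log2 change below 0, beside 48.5% of all genes; a difference from the Hox genes was not tested. Among the 15 none had an unadjusted p under 0.05, and their log2 changes ran from -0.18 to 0.11. On the Hoxd side, the homeobox gene Evx2 read 5.88 ± 0.08 in cKO and 5.93 ± 0.07 in WT, and the mitochondrial gene Mtx2 8.96 ± 0.08 in cKO and 8.91 ± 0.17 in WT (SD, n = 4 each). On the Hoxa side, the lowest p values of the list belonged to the sorting nexin gene Snx10, at 6.22 ± 0.15 in cKO and 6.39 ± 0.14 in WT, with a limma adjusted p of 0.450, and to Hibadh, an enzyme of valine breakdown, at 9.58 ± 0.07 in cKO and 9.46 ± 0.09 in WT, with one of 0.456.

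The partners of HOX proteins were also without a call. Of 8 measured cofactors of the PBC and MEIS families, which bind DNA together with HOX proteins, 0 passed, beside 2.76% of all genes. At that share, lists as short as this and the next ones would mostly hold no call. Of the 8, 6 lay below 0, beside 48.5% of all genes (median log2 change -0.04 among the 6 over the receptor level). The lowest p was that of Meis3, at 5.18 ± 0.03 in cKO and 5.01 ± 0.05 in WT (SD, n = 4 each; limma adjusted p = 0.0810), which was not over the receptor level, followed by Meis2, also dim, at 5.18 ± 0.11 in cKO and 4.996 ± 0.07 in WT; its adjusted p by limma was 0.194. None of 6 ParaHox genes passed; the lowest p were those of Gsx2, at 4.06 ± 0.07 in cKO and 4.14 ± 0.05 in WT, and of Cdx4, at 3.55 ± 0.08 in cKO and 3.61 ± 0.05 in WT. None of 8 measured regulators of Hox genes passed either. Among them Men1, the menin gene, read 7.46 ± 0.03 in cKO and 7.41 ± 0.04 in WT, and Rnf2, a ubiquitin ligase of Polycomb, 8.45 ± 0.09 in cKO and 8.51 ± 0.08 in WT. In these lists of cofactors, ParaHox genes and regulators an unadjusted p under 0.05 was reached by Meis2 and Meis3 alone.

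Dermal fibroblasts also carry Hox genes, and a bulk sample cannot tell fewer cells of a type from less RNA per cell. Of 14 measured fibroblast and papilla markers 5 were over the receptor level, while Pdgfra, at 3.88 ± 0.04 in cKO and 3.92 ± 0.05 in WT, and Col3a1, at 4.32 ± 0.11 in cKO and 4.36 ± 0.11 in WT (SD, n = 4 each), were near the receptor median. The list was split: Col1a1 (-0.91) and Cdh11 (-0.68) fell and Thy1 rose (0.57), where 0.836% of all genes were called lower and 1.92% higher. Cdh11 was not over the receptor level. The summed linear signal was 627 to 678 in cKO and 637 to 714 in WT, a sum in which opposite changes offset each other. Of the endothelial markers 1 of 5 was over the receptor level, of the melanocyte markers 4 of 6, of the immune markers 1 of 8 and of the muscle markers 0 of 5, and none of these lists held a call (3 genes in all had an unadjusted p under 0.05). Of the bulge markers Foxc1 fell (-0.29) and the other 13 did not pass, Nfatc1 with separate groups at -0.35 (limma adjusted p = 0.0566) among them, and none of 5 basal keratinocyte genes passed. The part of cell composition in the Hox differences was not tested.

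Immediate early genes, fast responders to growth signals and to tissue handling, also lay lower in cKO. All 19 measured had a log2 change below 0, beside 48.5% of all genes. Of the 19, 14 were lower at an unadjusted p under 0.05, beside 5.57% of all genes, and 0 at an adjusted p under 0.05 (limma). The list mean, as a deviation from the mean over all arrays, ran from -0.22 to -0.06 in the cKO arrays and from 0.19 to 0.32 in WT replicates 1 to 3, while WT replicate 4 was at -0.14, among the cKO arrays. In a fit that held this list mean constant, an alternative added with the data in view, 0 of the 6 passed, with log2 changes of -0.32 for Hoxa3, -0.42 for Hoxa5, -0.33 for Hoxb5, -0.27 for Hoxb6, -0.52 for Hoxb7 and -0.83 for Hoxd9. Without the list mean the log2 changes were -0.33, -0.48, -0.26, -0.26, -0.46 and -0.99 in the same order. The list mean followed genotype in all arrays but WT replicate 4, so the fit separates them poorly. How many of all genes passed in that fit is not given here. The loss of the 6 calls therefore cannot be set beside that of other genes. What part the immediate early genes have in the Hox differences was not tested. In the fit that held the list mean constant, the limma adjusted p was 0.168 for Hoxa5 and 0.155 for Hoxb5. Hoxb5os passed in that fit, at -0.95 (limma adjusted p = 0.0225).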

How the data were processed

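Bulge cell RNA in 4 G9a cKO and 4 G9a WT samples was hybridised to Affymetrix mouse arrays, 1 column per array, and 0 columns of other samples were present. Per the submitters' processing notes the authors used RMA, and the deposited table holds its log2 values, 1 for each probe set; the sources used here give neither version nor settings. No further normalization was applied. Array signal has no read depth, so the number of arrays limits the precision.

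Probe sets were named by the platform annotation: of 45141, 28898 had 1 symbol and 551 several, which were left unnamed. A gene was tested by its brightest probe set (mean of the 8 arrays). All 41 Hox probe sets had an Entrez identifier in the RefSeq table (GRCm38.p6) used for names, gene order and overlaps; promoter windows came from RefSeq on that build.

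Under R 4.3.3, cKO was compared with WT by limma 3.58.1 (two-sided moderated test from lmFit and eBayes with a mean-variance trend, Benjamini-Hochberg over 17097 genes, or over 45141 probe sets where stated; threshold 0.05). Fold changes are 2 to the power of the log2 change. The fit was tested on simulated data first.

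The members, lists and naming rule were chosen with earlier results of these data known. All members were accounted for; called genes, position 9, the neighbours of Hoxd9 and the largest rise and fall per cluster are given array by array, and other lists by their calls or up to 2 lowest p. Gm15050 and the other genes within the cluster spans were taken by position in the RefSeq table after the files were seen. Replicate numbers are shared between genotypes; the closing section gives the fit that uses them as a block. Alternatives are given in the closing section. Plots were made in Python 3.11.15 with matplotlib 3.10.9.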

Additional observations from a re-analysis of the deposited data

Results flagged for a closer look

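In 3 of 78 groups of 4 arrays, taken over the 33 Hox genes and the 6 other transcripts of the clusters, 1 array stood far from the other 3 by Dixon's test, where chance flags about 5% of groups. In Hoxb7, cKO replicate 1 read 8.27, while the other cKO arrays read 7.92 to 7.93. In Hoxb2, cKO replicate 1 read 6.49, while the other cKO arrays read 6.69 to 6.70. In Hoxc9, cKO replicate 4 read 6.52, while the other cKO arrays read 6.65 to 6.67. For Hoxb7 the outlying array was the one nearest to WT, and without it the log2 change was -0.55.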

How the results depend on the processing

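The count of 6 Hox genes called lower stayed at 6 with renewed quantile normalization, a common median, either filter on dim genes, the mean of all probe sets, every probe set on its own, no trend and array weights, and was 7 at an adjusted p under 0.10; 0 were called higher in every alternative. It was 2 at an adjusted p under 0.01, 3 with the replicate block and 0 with the immediate early covariate, and ran from 2 to 6 without 1 array: 2 without cKO replicate 2 or 3, 3 without cKO replicate 4 or WT replicate 3, 4 without WT replicate 1 and 5 without cKO replicate 1. Hoxa5 passed in each of these 8 fits. Calls over all 17097 genes moved as well, from 143 lower in cKO when every array was kept. Dropping cKO replicates 1 to 4 in turn gave 151, 68, 74 and 71 lower genes. Dropping WT replicates 1 to 4 in turn gave 78, 112, 67 and 294. All-gene counts are given for these 8 fits only. Whether the Hox calls are less stable than those of other genes was not tested. With the replicate block Hoxa3, Hoxb5 and Hoxb6 were lost; the numbers are not known to pair the arrays: deviations of same-numbered arrays from their group means correlated at -0.33, -0.27, -0.53 and 0.03, each below the highest with another number. The 7 called Hox probe sets became 2 at an adjusted p under 0.01, 2 with the replicate block, 0 with the covariate and 2 to 6 without 1 array. The 2 calls in the lists of cofactors, cluster transcripts, flanking genes, ParaHox genes and regulators became 1 with a common median, 0 at an adjusted p under 0.01, 0 with the replicate block, 1 with the covariate and 0 to 1 without 1 array. The causes of these changes were not tested, beyond fewer arrays in the fits without 1 array. Of 707 values of single genes under the alternatives, 657 kept their side of the threshold, 49 lost it, 1 gained it and 0 called values changed sign. Whether dimmer probe sets show smaller differences was not tested.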
